A study of Mus musculus with 4 samples.

Results

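Syngr1, Sh3gl3, Camk4, Kndc1, Pgbd5, Rcan2 and Cited1 are 7 genes with known roles in neurons or elsewhere outside the B cell lineage that gave very strong signals in 2 mouse B-cell lymphoma lines and weak or no signal in normal splenic B cells. They were chosen by that difference between the lines and the splenocytes, with no numerical threshold, out of 27734 gene names measured by 41174 probes. The lymphoma-minus-splenocyte values of these genes are therefore a description and carry no test. The genes have 16 probes on the array, and every one is described here. Rcan2 stands in the array's design under its older symbol Dscr1l1 and was found through its RefSeq transcript, while 6 genes were found under their own symbols. All 7 genes had at least 1 probe that passed the filter on dim probes, and 14 of the 16 probes passed it.

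RNA of 4 samples was hybridised, each to an Agilent single-colour array with Cy3. Splenocyte samples 1 and 2 were spleen cells carrying B220, a surface form of CD45 found on B cells, from female mice of strain C57BL/6N. Lymphoma lines 1 and 2 were cell lines grown from B-cell lymphomas that arose in mice transgenic for dopamine receptor 3, also labelled C57BL/6N and female. The lines were established independently, and each is represented by 1 array. The labels name no promoter for the transgene, no ages and no animals behind the splenocyte samples, so p-values measure the spread between these 4 arrays. In bulk RNA, fewer cells of a type and less RNA per cell cannot be told apart. Effects of culture, of lymphoma origin and of the transgene in the mice of origin cannot be told apart either. The 12 B-cell markers, CD79a among them, were all well above background on all 4 arrays.

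The array-wide setting matters for reading any count. Probes well above background numbered 24974 to 27319 per array, and no spot was saturated. The 75th percentile of processed signal was 514 on the array of splenocyte sample 2 and 1078 to 1315 on the other arrays, so weak probes were harder to see in that sample. Samples of one group correlated at 0.991 or 0.992 over all tested genes, and samples of different groups at 0.834 to 0.846. Of 18311 genes tested with limma, 63.3% passed an adjusted p of 0.05, 30.7% higher and 32.6% lower in the lines. Higher calls made up 48.5% of all calls, and 63.2% if arrays are centred on their median spot instead, which raises every difference by about 0.41 on the log2 scale. Both lines lay above both splenocyte samples for 41.2% of genes and below them for 43.8%, so separated groups are common on these arrays.

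Neurons package transmitter in vesicles that fuse with the membrane and are retrieved by endocytosis, and they couple electrical activity to transcription through calcium, calmodulin, kinases such as Camk4 and the phosphatase calcineurin. Synaptogyrin 1 is a vesicle membrane protein. Sh3gl3 encodes an endophilin, which bends membrane and recruits dynamin and synaptojanin. Camk4 is a calmodulin-dependent kinase that enters the nucleus and phosphorylates CREB, and it also works in T cells. Kndc1 encodes a brain Ras exchange factor with kinase-like domains that restrains dendrite growth. Pgbd5 derives from a piggyBac transposon and is expressed mainly in brain. Rcan2 is a regulator of calcineurin, and Cited1 is a coactivator that brings the acetyltransferases Ep300 and Crebbp to transcription factors. In cells that are not neurons, many neuronal genes are held silent by the repressor REST with its corepressor Rcor1 (CoREST).

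Promoter windows of RefSeq (build GRCm38.p6, 250 bases before to 50 after each transcript start) matched 6 of the 7 genes, with 10 windows. The 250 bases before the start are shown for 4 genes, from the most upstream window of each. Syngr1 is shown for a window rich in CpG and Cited1 for a TATA box. Kndc1 and Rcan2 are shown for windows with fewer CpG than the median, although another Rcan2 window is richer. Rcan2 was detected in neither splenocyte sample, and Kndc1 was high at 1 end of the gene only. Capitals mark a match to the GC box, the CCAAT box, the TATA box or either part of RE1, the element that REST binds, on either strand.
Syngr1, chr15:80091084-80091333, plus strand: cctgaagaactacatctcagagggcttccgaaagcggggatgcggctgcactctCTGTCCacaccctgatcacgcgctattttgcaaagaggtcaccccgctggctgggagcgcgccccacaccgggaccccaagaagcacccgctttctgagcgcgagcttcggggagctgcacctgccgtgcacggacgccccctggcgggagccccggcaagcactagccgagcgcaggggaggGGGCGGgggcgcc
Kndc1, chr7:139894446-139894695, plus strand: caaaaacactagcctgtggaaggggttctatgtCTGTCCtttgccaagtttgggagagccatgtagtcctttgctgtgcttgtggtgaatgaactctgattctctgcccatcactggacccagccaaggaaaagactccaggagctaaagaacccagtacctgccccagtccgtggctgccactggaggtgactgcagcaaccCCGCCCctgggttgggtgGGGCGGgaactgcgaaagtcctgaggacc
Rcan2, chr17:43801102-43801351, plus strand: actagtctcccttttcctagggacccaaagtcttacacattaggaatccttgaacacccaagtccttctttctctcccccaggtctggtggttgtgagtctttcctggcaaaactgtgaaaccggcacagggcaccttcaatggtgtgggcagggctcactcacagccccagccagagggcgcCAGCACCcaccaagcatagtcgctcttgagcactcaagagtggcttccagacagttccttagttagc
Cited1, chrX:102252182-102252431, minus strand: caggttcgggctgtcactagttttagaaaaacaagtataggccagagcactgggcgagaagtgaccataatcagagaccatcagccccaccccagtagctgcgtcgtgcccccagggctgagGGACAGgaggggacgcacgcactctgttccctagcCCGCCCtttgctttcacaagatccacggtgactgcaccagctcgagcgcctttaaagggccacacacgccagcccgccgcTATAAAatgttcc

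The windows share little sequence composition. The Syngr1 window held 38 CpG dinucleotides and the Pgbd5 window 43, against a median of 7 over all 32851 windows, whereas the Kndc1 window held 4 and the first Rcan2 window 5. The Sh3gl3 window held 16, and the 3 Cited1 windows held 14 to 32. A GC box (GGGCGG) stood in 5 of the 10 windows and in 35.7% of all windows. TATAAA stood in 2 of 10 (13.6% of all), both of Cited1, and CCAAT in 3 of 10 (37.4%). The first RE1 part, CAGCACC, stood in 4 of 10 windows (7.14% of all) and the second, GGACAG, in 6 of 10 (22.2%). The 2 parts in 1 stretch, at the spacing of the full RE1, stood in 0 of 10 windows and in 0.0365% of all. The cyclic AMP response element TGACGTCA, to which CREB binds, stood in 0 of 10 (1.79% of all), and its core TGACG, which the full element contains, in 2 of 10 (20.8%). The NFAT core GGAAAA stood in 4 of 10 (23.4%), the AP-1 site TGANTCA in 1 of 10 (7.81%) and the E-box CACGTG in 0 of 10 (7.15%). All were searched on both strands, and these counts describe letters and not use. Rcan2 and Cited1 supplied 3 windows each, so the windows are not separate genes.

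Pgbd5 had the highest ratio. Its 2 probes lie 1.148 kb apart on chromosome 8, minus strand, at chr8:127256340-127256399 and chr8:127255192-127255251 (build mm8, as in all probe positions here). The more 3′ of them gave processed signals (background-subtracted, in scanner units) of 5.0 and 1.53 in splenocyte samples 1 and 2, and of 27432 and 18777 in lines 1 and 2. The more 5′ probe gave 2.28 and 1.89 in the splenocytes and 1390 and 980.0 in the lines. Neither probe was well above background in a splenocyte sample, so only a lower bound can be given: the lines were at least 1740-fold higher at the 3′ probe and at least 89.5-fold higher at the other. The bound sets the lines against, on each splenocyte array, the higher of the probe's own signal and the weakest signal called well above background. Both probes were lower in line 2 than in line 1, by 0.78 and 0.73 on the log2 scale.

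Rcan2, on the plus strand of chromosome 17, showed the same pattern at 2 probes 18.1 kb apart. At chr17:43502209-43502268 the signals were 2.08 and 1.74 in the splenocytes and 4972 and 5037 in the lines, at least 384-fold. At chr17:43484107-43484166 they were 3.32 and 2.46 in the splenocytes and 381 and 352 in the lines, at least 28.1-fold. No splenocyte array gave a signal well above background at either probe. Genes like Pgbd5 and Rcan2, above background in the lines and in no splenocyte sample, made up 3.56% of those tested.

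The other 5 genes had a measurable low signal in splenocytes. Syngr1, on the plus strand of chromosome 15, has probes at chr15:79937865-79937924 and chr15:79940606-79940665 for the transcript the files call variant 1b, and at chr15:79946016-79946075 for variant 1a. The middle probe gave 28.5 and 12 in the splenocytes and 9557 and 8196 in the lines, a 294-fold ratio of means of scaled log2 values. The first gave 12.1 and 3.05, only sample 1 being well above background, against 2055 and 1848, at least 126-fold. The variant 1a probe gave 2.09 and 1.75, both within background, against 161 and 189, at least 13.4-fold. Both variants were detected in both lines, and the variant 1a probe alone gave the same scaled value in both lines (difference 0.0021 on the log2 scale).

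Sh3gl3 has 1 probe, at chr7:82183488-82183548 on the plus strand. It gave 36.4 and 13 in the splenocytes and 6435 and 6249 in the lines, a 178-fold ratio. All 4 values were well above background, and the groups lay far apart.

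Camk4, on chromosome 18, has 3 probes. The middle one gave 18.2 and 11.4 in the splenocytes and 2480 and 4762 in the lines, a 147-fold ratio. The most 3′ probe, 0.724 kb further on, gave 13.5 and 4.13, sample 2 being within background, against 739 and 1379, at least 61.5-fold. The most 5′ probe, 23.1 kb upstream of the middle one, was designed on a cDNA of neonatal cerebellum and gave 1.90 and 3.29, both within background, against 57.3 and 152, at least 7.15-fold. Line 2 was the higher line at all 3 probes.

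Kndc1 was high at 1 of its 4 probes. They span 40.1 kb on the plus strand of chromosome 7. The 3′-most, chr7:139792643-139792702, gave 14.6 and 16.7 in the splenocytes and 3934 and 4075 in the lines, a 157-fold ratio with all 4 values well above background. The first, chr7:139752549-139752608, gave 9.65 and 3.56 in the splenocytes and 4.41 and 7.32 in the lines, where it was within background. The second, chr7:139761905-139761964, gave 24 and 6.97 against 22.0 and 31.1, a log2 difference of 0.31. The third, chr7:139778516-139778575, was within background on all 4 arrays, with signals between 1.70 and 2.49. The files pair the 3′-most probe with another Ensembl transcript and with 1 further cDNA than the other 3 probes, and which transcript gave the signal was not tested. A gene-level value for Kndc1 therefore rests on its last probe: averaged over its tested probes, the difference is 3.8 in place of 7.30 on the log2 scale.

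Cited1, on the X chromosome at chrX:98450269-98450328 (minus strand), was detected in all 4 samples. Its probe gave 113 and 58.6 in the splenocytes and 20782 and 15798 in the lines, a 136-fold ratio. Both splenocyte values were well above background, and their scaled values differed by 0.12 on the log2 scale.

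**Figure D1:**
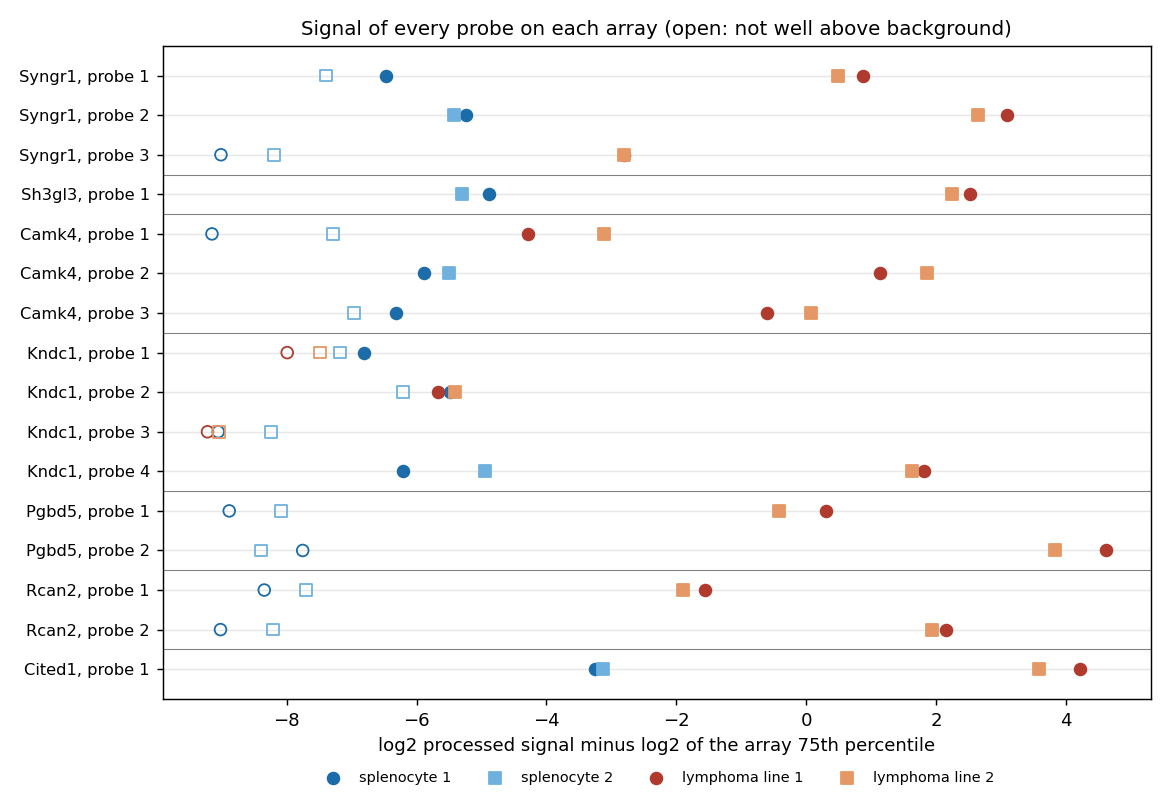
Scaled log2 signal (relative to the 75th percentile of its array) of all 16 probes on the 4 arrays, with probes numbered from the 5′ end of each gene. Filled symbols were well above background and open ones were not. The line and splenocyte symbols are far apart for 13 probes, and lie together for the first 3 Kndc1 probes.

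Seen over all probes, 7 were above background in neither splenocyte sample, 4 in 1 and 5 in both. All 7 genes were among the 68 tested genes (0.371%) at least 100-fold higher in the lines by fitted difference, the measure they were picked on. How the probes of 1 gene compare with each other was not part of the choice. Of these 68 genes, 32 have several probes, and 9 of the 32 have a probe less than 2-fold higher in the lines. Among the 5 picked genes with several probes, Kndc1 alone has such a probe. With another background correction, normexp, whose offset of 50 raises dim signals, the log2 differences were smaller: 7.98 at the 3′ Pgbd5 probe, 1.27 at the Syngr1 variant 1a probe and 0.71 at the 5′ Camk4 probe. The 13 probes that were higher in the lines stayed above 0, and the first 3 Kndc1 probes were at -0.64 to -0.52. Bounds given as at least a fold apply to the main background correction and not to normexp.

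**Figure D2:**
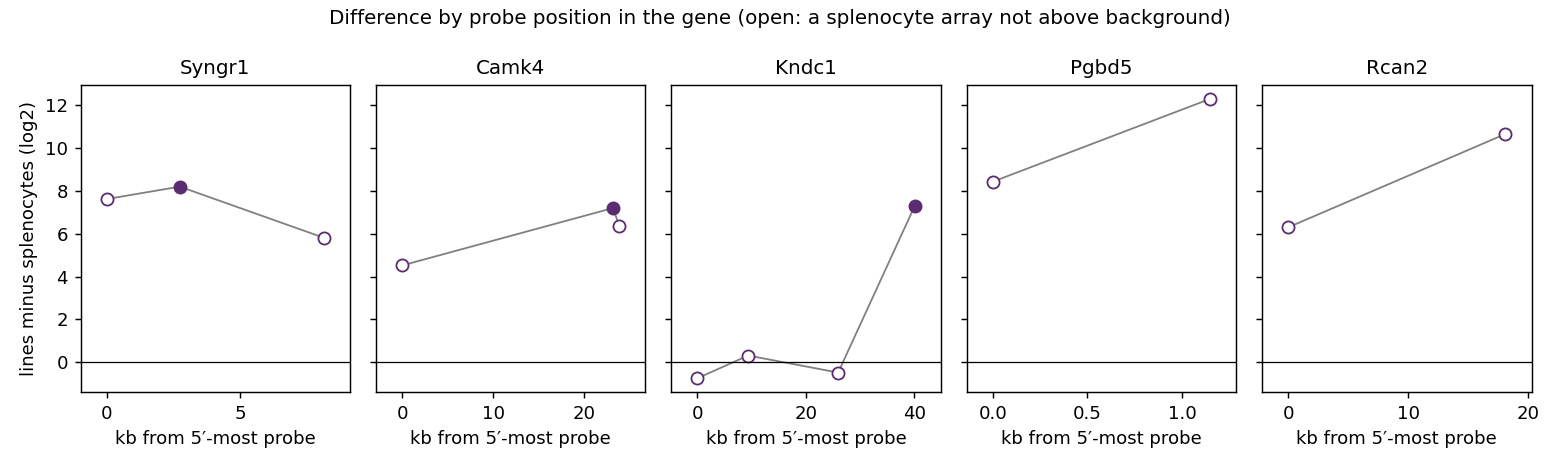
Log2 difference, lines minus splenocytes, of each probe against its distance in kb from the gene's most 5′ probe, for the 5 genes with several probes. Open symbols have at least 1 splenocyte array within background, so their height is not a bound. Kndc1 lies near 0 at 3 probes and at 7.30 at the fourth, 40.1 kb away.

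The 2 lines were close but not equal. Each line has 1 array, so gaps between them are given by size with no test, beside the median absolute gap between lines over 16703 genes above background in both, 0.22 on the log2 scale. Of the 14 probes above background in both lines, 11 had a gap larger than that median, 9 were lower in line 2 and 5 were higher, 1 of these, Syngr1 variant 1a, by 0.0021. Camk4 stood opposite to most: line 2 exceeded line 1 by 0.71, 0.67 and 1.18 at its middle, 3′ and 5′ probes. Gaps as large as that of the middle probe or larger occurred in 9.14% of the bright genes. Pgbd5 was lower in line 2 by 0.78 at its brighter probe, a gap exceeded in 7.66% of bright genes. Cited1 decreased by 0.62 from line 1 to line 2 (exceeded in 11.7%), and Syngr1 decreased by 0.45 and 0.38 at its variant 1b probes. Kndc1 at its 3′ probe, Rcan2 at its brighter probe and Sh3gl3 differed by 0.18 to 0.27 in size.

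**Figure D3:**
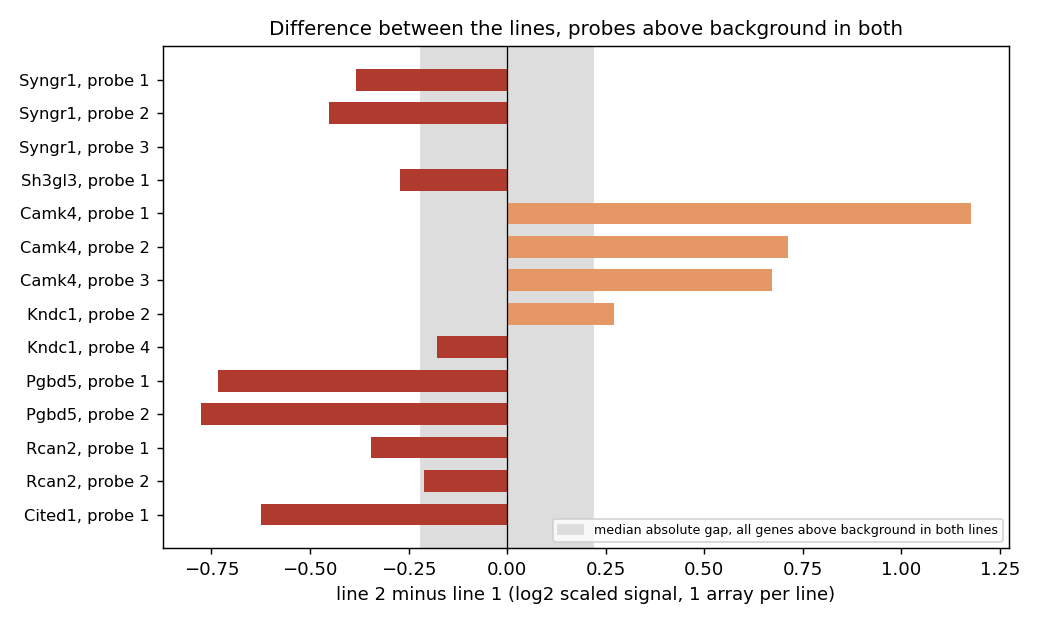
Line 2 minus line 1 in scaled log2 signal, for the 14 probes above background in both lines. The grey band is the median absolute gap of 16703 bright genes (0.22). The 3 Camk4 bars point to line 2, from 0.67 to 1.18, and the Pgbd5 and Cited1 bars point to line 1.

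The working name "neural-type" was set against genes that define neurons. Of 28 such genes, 15 could not be tested, and 12 of these were within background on all 4 arrays: Snap25, Syt1, Stmn2, Gap43, Elavl3, Nefm, Gria2, Slc17a7, Gad2, Ina, Scg2 and Th. They include core parts of the synaptic fusion machinery and of neurofilaments. Of the 13 tested genes, 6 rose (46.2%, beside 30.7% of all genes), 2 fell and 5 were not called, with a median difference of 0.65 against -0.05 over all genes. Eno2, neuron-specific enolase, was 6.76 higher (SE 0.19, limma adjusted p = 0.000153), and Nefh, the heavy neurofilament chain, was 5.69 higher (SE 0.33, adjusted p = 0.000569). The granule protein gene Chgb was 3.22 higher. Eno2 was within background in splenocyte sample 2. With normexp background correction the differences were 4.20 for Eno2, 5.07 for Nefh and 0.98 for Chgb, all still called. Uchl1, a ubiquitin hydrolase abundant in neurons, fell by 5.23 (SE 0.26, adjusted p = 0.000405), and Gad1, which makes GABA, fell by 1.63. The summed scaled level of the tested genes was 2.56 and 3.21 in the splenocytes and 14.2 and 10.2 in the lines. Most of each line sum came from Nefh alone, with scaled log2 values of 3.26 and 2.51 in lines 1 and 2. The sums therefore do not show a rise spread over these genes. With 12 of the 28 genes within background everywhere and 6 called higher, the 7 genes are called by their symbols here.

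Other cell types were checked in the same way. Beside 63.3% of all genes, 66.7% of T-cell genes, 66.7% of B-cell genes and 50% of tested glial genes were called. Of 12 T-cell genes, of interest because T cells use Camk4, 7 fell and 1 rose, with a median of -0.79 on the log2 scale. Cd8a was at least 23.3-fold lower in the lines, while Cd3g was 4.36 higher (SE 0.17, adjusted p = 0.000254). The summed T-cell level was 15.9 and 13.9 in the splenocytes and 7.66 and 9.58 in the lines. Of 12 B-cell genes, 7 fell and Spib rose, with a median of -1.11, and their summed level was 818 and 1021 in the splenocytes and 536 and 509.7 in the lines. Of 8 tested glial genes, 3 fell and Olig2 was called higher, but with a 2.18-fold bound only, and the call ended without either lymphoma line (adjusted p = 0.123 without line 1 and 0.166 without line 2), and with normexp background correction its value was -0.21. Gfap was within background on all arrays. The summed glial level was 15.9 and 17.1 in the splenocytes and 0.735 and 0.827 in the lines. Nearly all of the splenocyte sum came from the brightest probe of Mbp, which fell, while its other 2 tested probes were called higher. Without Mbp the sums were 0.666 and 0.611 in the splenocytes and 0.170 and 0.227 in the lines. The part of other cell types in the values of the 7 genes was not tested.

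REST and its partners were measured well on all 4 arrays. Of 14 genes, 5 fell, 2 rose and 7 were not called, a share of 50% called against 63.3% of all genes. Rcor1, which links REST to the demethylase Kdm1a and histone deacetylases, had scaled log2 values of 3.13 and 2.94 in the splenocytes and -6.63 and -5.62 in the lines. It fell by 9.16 (SE 0.38, adjusted p = 0.000268), and its other 2 probes fell by 7.96 and 5.37. Its relative Rcor2 was 2.67 higher (adjusted p = 0.0007) and the deacetylase Hdac2 2.16 higher. Phf21a and Zmym2, members of the same complex, fell by 1.82 and 1.45. Rest itself had values of 3.38 and 3.29 in the splenocytes and 2.71 and 2.62 in the lines, and fell by 0.67 (SE 0.14, adjusted p = 0.0154). At its other 2 probes Rest was not called (-0.36 and -0.09), and the call ended without splenocyte sample 1 (adjusted p = 0.096) or without sample 2 (adjusted p = 0.0764). The Rest call also ended in the mean over its probes (-0.37, adjusted p = 0.0926) and with median centring (-0.26, adjusted p = 0.258). It ended with no filter on dim probes as well (adjusted p = 0.0532). Whether any of the 7 genes responds to changes in REST and its partners was not tested.

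Relatives of the 7 genes were called in both directions, more often higher. Of 22 tested relatives of 26, 10 rose, 5 fell and 7 were not called, with a median of 0.41 against -0.05 over all genes. The share that rose was 45.5%, beside 30.7% of all genes. With normexp background correction 6 rose and 6 fell. In the synaptogyrin and synaptophysin family, Syp (at least 2.83-fold higher), Syngr4 (1.54) and Syngr2 (1.35, adjusted p = 0.00224) rose and Sypl fell by 1.51. With normexp the calls of Syp (0.03 on the log2 scale, adjusted p = 0.939) and Syngr4 (0.26, adjusted p = 0.449) ended. Syngr3 was at -0.56 (adjusted p = 0.100) and Synpr was too dim. Among endophilins, Sh3glb2 rose by 0.73, a call that ended without splenocyte sample 1 (adjusted p = 0.0665) or 2 (0.0744). Sh3glb1 was called lower at -0.88, but its other 2 probes were called higher and the call ended without splenocyte sample 1 (adjusted p = 0.13) or line 2 (0.0968). Sh3gl1 was at -0.35 (adjusted p = 0.0985), and Sh3gl2, the neuronal endophilin, was within background everywhere. Among calmodulin-dependent kinases, Pnck was at least 6.71-fold higher (0.50 on the log2 scale with normexp, adjusted p = 0.239) and Camk2a rose by 3.12 (SE 0.38, adjusted p = 0.00318). Camk2d rose by 1.08 at its brightest probe while 2 of its other probes were called lower. Camk1g, Camk2g, Camk2b and Camk1d were not called, with values from -0.25 to 0.46, and Camk1 was too dim.

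Kndc1 shares its KIND domain with Spire1, Spire2 and Ptpn13. Spire1, an actin nucleator, rose by 5.94 (SE 0.60, adjusted p = 0.00194) and did so at its 3 tested probes (3.01 to 5.94). With normexp the rise of Spire1 was 2.46. Spire2 was at least 4.39-fold higher, but at 0.20 on the log2 scale with normexp (adjusted p = 0.610). The phosphatase Ptpn13 fell by 1.51, a call that ended without splenocyte sample 1 (adjusted p = 0.0714) or line 1 (0.0524). Rcan1 rose by 1.36 (adjusted p = 0.00246) and Rcan3 fell by 1.34 (adjusted p = 0.0021). Cited4 fell by 1.14, a call that ended without splenocyte sample 1 (adjusted p = 0.0559) or 2 (0.0746), and Cited2 was at -0.54 (adjusted p = 0.0683). Pgbd1 was seen above background in line 1 only.

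In the calcium, calcineurin and CaMK pathway 7 of 28 tested genes rose, 9 fell and 12 were not called, with a median of -0.13. The share called was 57.1%, beside 63.3% of all genes, and 25% rose, beside 30.7% of all genes. Camkk1, one of the kinases that activate Camk4, fell by 3.18 (SE 0.19, adjusted p = 0.000586), while the other, Camkk2, was at -0.39 (adjusted p = 0.105). The calcineurin catalytic gene Ppp3cc fell by 2.0 (adjusted p = 0.00237), and Ppp3ca was at 0.23 (adjusted p = 0.390). Ppp3cb was called 2.01 higher at its brightest probe, while 2 of its other 3 tested probes were called lower. Downstream, the calcineurin target Nfatc1 fell by 1.65, though its other probe was at 0.33 and not called, and the transcription factor Mef2c fell by 1.93. Ppm1f, a phosphatase that removes the activating phosphate of CaM kinases, rose by 1.17, and the calmodulin gene Calm3 by 1.11. Without splenocyte sample 2, 10 genes in place of 16 were called.

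Genes of endocytosis and the vesicle cycle were called higher more often than lower: 14 of 29 tested rose, 6 fell and 9 were not called, with a median of 0.61. A share of 48.3% rose, beside 30.7% of all genes. Itsn1, a scaffold that gathers endophilin and dynamin partners, rose by 7.01 (SE 0.23, adjusted p = 0.000182). It was called higher at its 4 tested probes (2.42 to 7.35), and its remaining probe, at -1.46, was too dim to test. Its relative Itsn2 fell by 2.45 (adjusted p = 0.000637). All 4 tested subunits of the AP2 clathrin adaptor other than Ap2b1 rose, from 0.91 to 2.09, with Ap2a2 highest. Ap2a1, at 0.91, lost its call without splenocyte sample 1 (adjusted p = 0.0512). Ap2b1 was at -0.11 (adjusted p = 0.550) at its brightest probe but called lower at its other probe (-4.22) and in the mean of both (-2.17, adjusted p = 0.00114). Of the dynamins, Dnm2 fell by 0.98 and Dnm3 was at least 8.49-fold lower. The neuronal Dnm1, counted among the 14, was within background in both splenocyte samples and allows no fold. Synj2, a synaptojanin, fell by 2.21 at its brightest probe, but its other 3 probes ran from -0.90 to 0.86 and the call ended in the mean over probes (-0.70, adjusted p = 0.0794). Vamp2 fell by 2.0 at its brightest probe and was not called at its other 2 (-0.41 and -0.40). Amph, Cplx1 and Snap91 were within background on all arrays.

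Of 10 tested Cited1 partners, 3 rose, 2 fell and 5 were not called, with a median of 0.10. That is 50% called, beside 63.3% of all genes. The acetyltransferase Ep300 was called 0.71 lower, but the call ended without splenocyte sample 1 (adjusted p = 0.0638), splenocyte sample 2 (0.115) or line 1 (0.0612), although another of its probes was at -4.09 (adjusted p = 0.00108) and the mean over its probes at -1.70 (adjusted p = 0.00264). Its partner Crebbp was at -0.23 (adjusted p = 0.222). Smad2 fell by 1.1 (SE 0.15, adjusted p = 0.0041). Ctnnb1, beta-catenin, was called 1.56 higher at its brightest probe and lower at another. The AP-2 factors Tfap2a (0.77) and Tfap2b (0.53) were called higher. Tfap2a lost its call without splenocyte sample 1 (adjusted p = 0.0906) or 2 (0.0524), and Tfap2b without any 1 of the 4 samples (adjusted p from 0.0584 to 0.139). With normexp background correction Tfap2a was at 0.24 (adjusted p = 0.382) and Tfap2b at -0.24. The number called was 5 over all samples, 2 without splenocyte sample 1, and 3 without splenocyte sample 2 or without line 1.

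**Figure D4:**
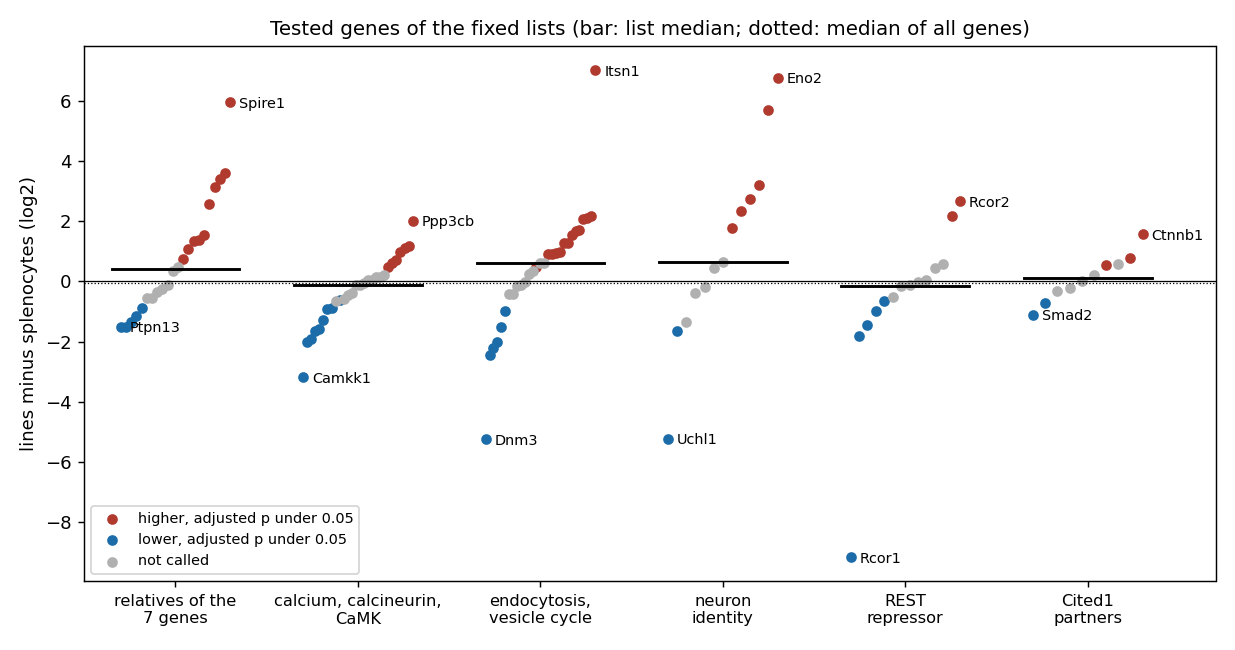
Log2 difference, lines minus splenocytes, of each tested gene in 6 lists, with the list median as a bar and the median of all genes dotted. Points are red or blue for genes called higher or lower at an adjusted p under 0.05 and grey otherwise. All lists hold genes in both directions, from Rcor1 at -9.16 to Itsn1 at 7.01.

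Genes next to the 7 genes were read as a measure that the choice did not use. The 3 nearest named genes on each side, by probe position, gave 42 neighbours, of which 33 were tested: 17 rose, 3 fell and 13 were not called, with a median of 0.49. Mgat3, Nrep, Clic5 and Agt, 4 of the 17, were within background in both splenocyte samples. They passed the filter on dim probes through the lines alone, as did 3.56% of all tested genes. Agt allows no fold. A share of 51.5% rose, beside 30.7% of all genes, and 13 in place of 20 were called without splenocyte sample 2. The neighbourhoods were uneven. Mgat3, a glycosyltransferase gene 100.6 kb past Syngr1, was within background in both splenocyte samples and at least 50.3-fold higher in the lines. Its log2 difference was 3.06 with normexp, and its other probe was at 2.49. Between Syngr1 and Mgat3, Tab1, 48.3 kb past Syngr1, was at 0.25 (adjusted p = 0.186), and Cbx7 on the other side of Syngr1 fell by 2.69. Nrep, 253 kb past Camk4, was at least 25.2-fold higher, with a log2 difference of 1.94 with normexp. Epb41l4a, 612 kb past Camk4, was at 0.38 (adjusted p = 0.195).

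Around Rcan2, Enpp4 at 67.7 kb was at least 12.9-fold lower in the lines, and Clic5, an intracellular chloride channel gene at 248 kb, was at least 7.58-fold higher, but not called with normexp (0.67, adjusted p = 0.219). Enpp5, at 56.1 kb and nearer to Rcan2 than either, was at -0.39 (adjusted p = 0.148). Near Sh3gl3, Hdgfl3 rose by 3.67 (SE 0.36), though a dimmer probe of it was at -0.39, and Tm6sf1 fell by 2.99 (SE 0.17), although the probes of this pair lie about 425 and 426 kb away on the same side. Hdgfl3 was within background in splenocyte sample 2, and its rise was 1.61 with normexp. Next to Kndc1, Inpp5a rose by 1.69 (SE 0.15) and Adam8 was at -0.48 (adjusted p = 0.107). Next to Pgbd5, Urb2 rose by 1.26, and Taf5l was at 0.30 (adjusted p = 0.193) at its brightest probe and called higher at its other probe (1.39). Next to Cited1, Ercc6l rose by 2.07 and Rps4x was at -0.81 (adjusted p = 0.105) at its brightest probe and called higher at its other probe (1.83), with a mean over both of 0.51 (adjusted p = 0.0741).

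**Figure D5:**
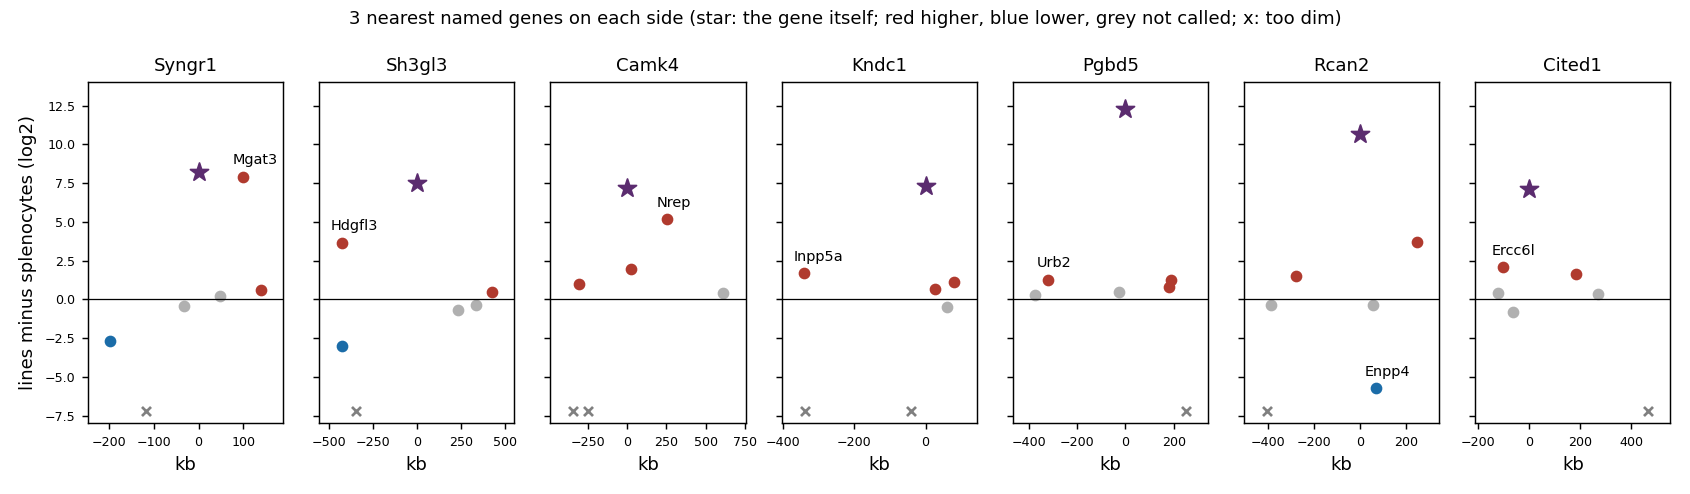
Log2 difference, lines minus splenocytes, of the 3 nearest named genes on each side of each gene against distance in kb, with the gene itself as a star at 0. Red and blue points passed an adjusted p of 0.05, grey points did not, and crosses at the bottom were too dim to test. The genes lie between 7.09 and 12.30, and of their neighbours Mgat3 alone, at 7.90, is above 7.

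The most alike profiles over the 4 arrays, up to 2 for each gene, were found by Euclidean distance after each profile was centred on its own mean, among 16702 genes above background in both lines. With 2 groups this mostly finds genes of equal ratio, so it is a description. Syngr1 was nearest to Prickle1 (distance 0.232 on the log2 scale) and LOC676015 (0.343). Sh3gl3 was nearest to Nkpd1 (0.102) and Hacd1 (0.300), and Camk4 to Map1a (0.316) and Klhl13 (0.318), which share its higher value in line 2. Kndc1 was nearest to Pla2g4f (0.105) and Ank3 (0.340), and Cited1 to Slc30a2 (0.456) and Lrfn3 (0.478). Rcan2 was nearest to Ap3b2 (0.609), the neuronal subunit of the AP3 adaptor, and Cep112 (0.920). For Pgbd5, a transcript listed as AK090125 lay at 1.92. Each profile was that of a gene's brightest tested probe, and other probes of these genes can differ. The lowest difference at any probe was -1.08 for Klhl13, 0.42 for Map1a, 0.65 for Hacd1 and 0.22 for Ap3b2. It was 4.29 for Prickle1, 2.35 for Ank3 and 1.09 for Cep112.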

How the data were processed

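Each of the 4 deposited files is the scanner output of 1 Agilent single-colour array, with spot intensity values that Agilent Feature Extraction (9.5.1.1 per the file headers) had background-subtracted. All 4 arrays were on 1 slide with 1 scan. The deposited value table holds the authors' processed intensity values, which follow the scanner values times 1 factor per array (medians 1.00, 2.10, 0.961 and 0.820). Its scaling target is not given in the sources used here.

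Control spots and flagged spots were left out, which removed 153 probes. Values are log2 of processed signal minus log2 of the array's 75th percentile. Probes had to stand well above background on 2 or more of the 4 arrays, and a gene took its tested probe with the highest mean. Probe names were updated through RefSeq accessions. The fit was limma 3.58.1 (lmFit and eBayes) in R 4.3.3, on 18311 genes with Benjamini-Hochberg adjustment over all of them, and had 2 residual degrees of freedom plus 2.32 from the prior. It was also run on simulated data whose spread was drawn from the fitted prior, which does not test its behaviour at dim signals. With 2 samples a group an exact permutation test cannot pass the threshold, and the number of arrays limits the precision. The named genes were all 7 members, every gene of lists with 6 or fewer tested genes, otherwise the 3 largest rises and falls, 9 genes by role, each gene's largest rise and fall among neighbours, and the 2 nearest profiles. Some genes that this rule names are not reported here. Tab1, Enpp5, Agt, Dnm1, Dnm2, Vamp2, Ap2a1, Ap2b1 and the Camk1 and Camk2 relatives that were not called were chosen after their values were seen. The members and the lists were chosen with earlier results of these data known. Same-numbered samples of the groups did not deviate together (correlation 0.014), so no pairing was used.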

Additional observations from a re-analysis of the deposited data

How the results depend on the processing

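The main count of 11584 genes called, 48.5% of them higher, became 63.2% higher with centring on the median of all spots, which shifts all differences up by 0.41. The shift was -0.26 with normexp background correction, -0.34 with no filter on dim probes, 0.14 with quantile normalization and -0.13 with a percentile over bright probes. The median difference of the 7 genes, 7.48, was 7.89 with median centring and 5.73 with normexp, whose offset of 50 raises dim signals, and ranged from 7.55 to 7.93 without 1 sample, where the lone sample left in a group is assumed to vary like the other group. Of 176 probe values under alternatives, 152 moved by less than the spread between samples and 24 by more, and none whose difference exceeds 1 changed sign. Cited1 partners called were 3 with normexp, 3 with no filter and 2 to 4 without 1 sample, against 5. Calcium pathway genes called were 10 to 15 without 1 sample, and neighbours 13 to 19. With the replicate number as a block (no pairing is shown), 10809 genes were called. The block ended the call of Tfap2b (adjusted p = 0.0626). Of 1339 values of named genes, 1272 kept a call in the same direction or stayed uncalled, whatever their sign. Rps4x, uncalled at -0.81 and at 0.51 with the mean over probes, counts among these. A call was lost in 44 and gained in 17. In 6 the sign changed where the main fit or the alternative gave a call. With normexp they were Tfap2b at -0.24, Olig2 at -0.21 and Dnm1 at -0.36. With the mean over a gene's probes, where probes of the gene disagree, they were Ppp3cb at -0.24, Camk2d at -0.41 and Sh3glb1 at 0.34. Normexp also ended the calls of Syp (0.03), Spire2 (0.20), Tfap2a (0.24), Syngr4 (0.26), Pnck (0.50) and Clic5 (0.67). The mean over probes ended those of Mbp, Synj2 and Rest. The causes were not tested. Slide as a block was not run, since all arrays share 1 slide. Signal over background limits the splenocyte values: 7 of 16 probes were within background in both samples.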
